A study of Homo sapiens with 6 samples.

Results

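The EIF4G family of translation initiation scaffolds comprises EIF4G1, EIF4G2 and EIF4G3, 3 of the 62438 genes in the deposited table, and all 3 were among the 17320 genes that passed the filter on low counts. The family was selected on the difference between si-N6AMT1 and si-CN libraries, because EIF4G2 had one of the clearest falls after knockdown, and EIF4G1 and EIF4G3 were taken as its paralogs for comparison. Their changes in this contrast are therefore given as a description, and whether they pass a threshold in it is not read as a test. The libraries hold mRNA of cells that the labels call MDA-MB-453, an established line from a human breast carcinoma. The cells were collected 48 h after transfection of 10 nM siRNA with Lipofectamine RNAiMAX. The si-N6AMT1 group received an siRNA against N6AMT1, and the si-CN group received a scrambled siRNA (Control in the labels), with 3 libraries each. The labels give no other treatment and do not say whether the 3 libraries of a group came from separate transfections, so standard errors and p-values measure only the spread between these libraries.

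Library totals ran from 19739247 to 21289740 counts. Levels are in CPM (counts relative to the library total, scaled with edgeR's TMM factors). N6AMT1 itself, the targeted gene, was downregulated from 6.81 ± 0.145 to 3.18 ± 0.312 CPM (SD, n = 3 each; edgeR's quasi-likelihood test, FDR = 3.65e-07). Markers of the labelled line went partly against the label. TPM here is the count divided by transcript length, relative to the library sum of these values, without TMM factors. MDA-MB-453 is known as a luminal line, but SPDEF, a luminal transcription factor, had at most 0.357 TPM. By contrast, the basal keratins KRT5 and KRT14 had 763 and 150.4 TPM in si-CN. The luminal keratins KRT8 and KRT18 had 748 and 726 TPM, ERBB2 26.2 TPM and FOXA1 5.34 TPM. Other markers went with the label. XBP1, expected to be high, had 98.2 TPM in si-CN, and ESR1 and PGR, expected to be low, had at most 0.268 and 0.0174 TPM in any library. Of the markers of leukocytes and fibroblasts, PTPRC was at or under 0.0637 TPM, COL1A1 had 17.2 TPM and COL3A1 1.47 TPM. The summed level of the 6 markers expected to be high was 1591 to 1615 TPM in si-CN and 1697 to 1706 TPM in si-N6AMT1 libraries. That of the 4 expected to be low was 906 to 927 and 986 to 999 TPM. KRT8 and KRT18 made up most of the first sum, and KRT5 and KRT14 most of the second, so the sums mainly describe keratins. The part of these differences between groups in the results below was not tested.

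Translation of most mRNAs starts at the cap, which is bound by the eIF4F complex of the cap-binding protein eIF4E, the RNA helicase eIF4A and a large scaffold, eIF4G. EIF4G1 encodes the main scaffold and EIF4G3 a close relative, and both bind eIF4E and the poly(A)-binding protein through their N-terminal parts. EIF4G2, also called DAP5, p97 or NAT1, encodes a shorter protein that resembles the middle and C-terminal parts. It binds eIF4A and eIF3 but not eIF4E, and is known for starting translation without the canonical cap complex. Its own coding sequence is known to begin at a GUG codon.

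These differences were visible in the sequences of the reference transcripts (GENCODE release 44 on GRCh37). The first 30 coding bases of each member are shown because they hold the codon in which EIF4G2 differs, with the annotated start codon in capitals. They lie at chr3:184033585-184033614 on the plus strand for EIF4G1, at chr11:10828813-10828842 on the minus strand for EIF4G2, and at chr1:21329206-21329235 on the minus strand for EIF4G3.
EIF4G1: ATGaacaaagctccacagtccacaggcccc
EIF4G2: GTGgagagtgcgattgcagaagggggtgct
EIF4G3: ATGaattcacaacctcaaacccgttctccg
All 4 complete protein-coding transcripts of EIF4G2 begin at GTG, compared with 0 of 13 of EIF4G1 and 2 of 11 of EIF4G3.

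Translated from these transcripts, EIF4G2 has 907 residues, EIF4G1 1599 and EIF4G3 1641. In a global alignment EIF4G1 and EIF4G3 were identical at 54.7% of 1511 aligned residues, whereas EIF4G2 was identical to EIF4G1 at 33.7% of 861 and to EIF4G3 at 31.8% of 849. The best local alignment matched residues 21 to 900 of EIF4G2 with residues 707 to 1595 of EIF4G1. The N-terminal part of EIF4G1 that precedes this stretch, where its eIF4E-binding region lies, had no counterpart in it. In the genome (GRCh37), EIF4G1 (ENSG00000114867) spans chr3:184032283-184053146, EIF4G2 (ENSG00000110321) chr11:10818597-10830487 and EIF4G3 (ENSG00000075151) chr1:21132785-21503778. No other gene in the table has a symbol that begins with EIF4G, so no annotated pseudogene of that name could take a share of their reads.

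EIF4G2 was the most abundant member and had the largest difference between groups. It had 32987, 33792 and 36451 counts in si-CN replicates 1 to 3, and 20988, 21979 and 21589 counts in si-N6AMT1 replicates 1 to 3. Normalised, these were 1680, 1716 and 1719 CPM in si-CN against 1059, 1076 and 1053 CPM in si-N6AMT1 libraries. Every si-N6AMT1 library lay far below every si-CN library, and the libraries of a group differed little, with coefficients of variation of 1.26% in si-CN and 1.16% in si-N6AMT1. The log2 fold change was -0.68 (standard error 0.0197), which left 62.3% of the si-CN level. In bulk RNA, a lower level per cell and fewer cells that express a gene cannot be told apart.

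**Figure D1:**
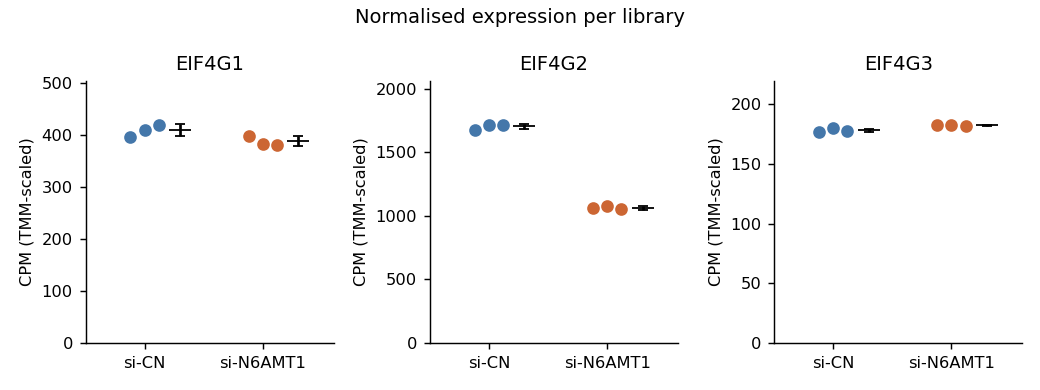
Normalised expression of each EIF4G gene per library, in CPM on axes that start at 0. Points are single libraries in replicate order, bars give the mean and SD of 3 libraries, and EIF4G2 sits at 1680 to 1719 CPM in si-CN against 1053 to 1076 CPM in si-N6AMT1, while EIF4G1 and EIF4G3 stay near one level.

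EIF4G1, the main eIF4E-binding scaffold, had 396.3, 409.4 and 419.2 CPM in si-CN and 398.4, 382.7 and 381.1 CPM in si-N6AMT1 libraries. The groups overlapped, since si-N6AMT1 replicate 1 lay above si-CN replicate 1. Its log2 fold change was -0.08 (standard error 0.0245). EIF4G3 had 177.2, 179.8 and 177.4 CPM in si-CN and 182.5, 183.0 and 181.8 CPM in si-N6AMT1 libraries, which gave a log2 fold change of 0.03 (standard error 0.0235). Its groups did not overlap in CPM, although their means differed by only 2.43%, and on the TPM scale they did overlap. The log2 fold change of EIF4G2 minus that of EIF4G1 was -0.61, and minus that of EIF4G3 it was -0.72.

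In the fit across all genes 2 of 3 members passed the threshold of FDR under 0.05, EIF4G1 and EIF4G2, both in the downward direction. Of all genes tested, 21.3% passed it, 11.5% lower and 9.78% higher. For EIF4G1 the call was lost without si-N6AMT1 replicate 2, without si-N6AMT1 replicate 3, without si-CN replicate 2 and without si-CN replicate 3, where its log2 fold change was -0.07, -0.06, -0.07 and -0.06. EIF4G2 passed in 11 of 11 alternative settings, and EIF4G3 in 0 of 11, but every setting reuses the libraries that chose EIF4G2. The libraries of the 2 groups did not overlap in CPM for 2 of 3 members, compared with 34.9% of all genes tested. Because this contrast chose the members, nothing is read from these counts.

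The place of the members among all genes is given as a description of the values that chose them. In si-CN EIF4G2 ranked 23rd of 17320 genes by CPM. By log2 fold change it was the 117th from the lowest. Among the 35 genes with at least its mean CPM over all libraries, itself included, 0 had a lower log2 fold change. The genes that fell further thus all had a lower mean CPM, a level that is not per length. The median absolute log2 fold change over all genes tested was 0.11, and 98.2% of genes had a smaller one than EIF4G2, compared with 37.3% for EIF4G1 and 18.1% for EIF4G3.

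Levels of the 3 genes can be compared only per length. In TPM, computed with reference transcript lengths, the order EIF4G2, EIF4G1, EIF4G3 held in 6 of 6 libraries. In si-CN the levels were 999.9 ± 24.5, 168.1 ± 6.62 and 61.9 ± 1.10 TPM (SD, n = 3), with no overlap between neighbours in this order. In si-N6AMT1 libraries they were 622 ± 6.50, 159.1 ± 5.40 and 63.3 ± 0.612 TPM (SD, n = 3), again without overlap. Summed over the family, transcripts fell from 1230 ± 31.9 to 844 ± 11.1 TPM, a description that follows from the level and change of EIF4G2.

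The make-up of the family pool shifted with this. EIF4G2 made up 81.3% ± 0.146 (SD, n = 3) of EIF4G transcripts in si-CN and 73.7% ± 0.438 in si-N6AMT1 libraries. EIF4G1 made up 13.7% ± 0.210 and 18.8% ± 0.437, and EIF4G3 5.04% ± 0.0642 and 7.50% ± 0.0445. Within a library there were 5.84 to 6.04 EIF4G2 transcripts for each EIF4G1 transcript in si-CN, compared with 3.79 to 4.01 in si-N6AMT1. For each EIF4G3 transcript there were 16.0 to 16.3 and 9.76 to 9.92. The ratio of EIF4G1 to EIF4G3 was 2.65 to 2.80 in si-CN and 2.48 to 2.58 in si-N6AMT1 libraries. The shares and ratios between genes depend on the assumed length. With the median length of all protein-coding transcripts, many of them short fragments (886 bases for EIF4G2), the ratio of EIF4G2 to EIF4G1 in si-CN rose from 5.95 to 17.0 and that to EIF4G3 from 16.1 to 61.9. The share of EIF4G2 was then 93.0% in si-CN and 89.6% in si-N6AMT1 libraries, and that of EIF4G1 5.47% and 8.02%. With the median length of complete transcripts, the share of EIF4G2 was 80.6% and 72.7%. The order of EIF4G2, EIF4G1 and EIF4G3 did not change under these lengths in the group means, and the relative change of a ratio between groups does not involve the length.

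**Figure D2:**
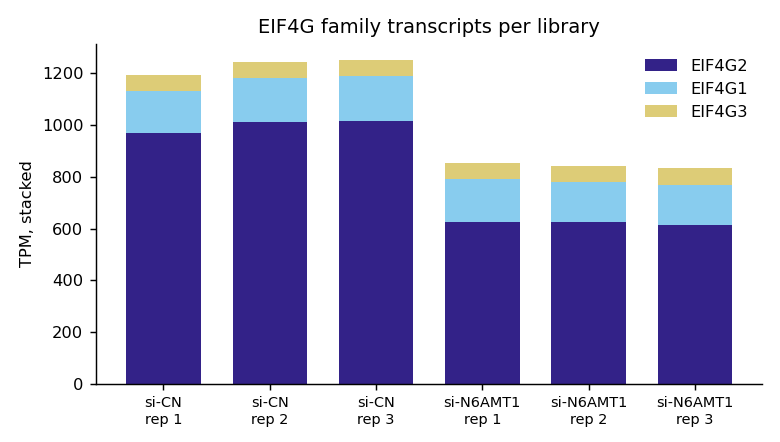
Stacked TPM of EIF4G2, EIF4G1 and EIF4G3 in each of the 6 libraries, on an axis that starts at 0. Sums run from 1193 to 1252 TPM in si-CN and from 833 to 855 TPM in si-N6AMT1, and the segment of EIF4G2 accounts for the difference in height.

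Next, the letters of the transcripts were examined. TTCACAT and TCACATA are 7-base sequences that earlier work on these fold changes had singled out in 3′ UTRs, so they were not chosen independently of them. The paper does not name these sequences. The search covered the sense strand only, and the motifs share the 6 bases TCACAT. The 3′ UTRs of the reference transcripts are 445 bases (EIF4G1), 762 bases (EIF4G2) and 840 bases (EIF4G3) long, and 0 of 3 held either sequence. Of 19049 reference 3′ UTRs of protein-coding genes with at least 50 bases, whose median length was 1104 bases, 20.5% held at least 1 of them (16.1% TTCACAT, 10.4% TCACATA). No other complete protein-coding transcript of the 3 genes held one in its 3′ UTR. The 5′ UTRs and coding sequences of the 3 reference transcripts held neither as well, and TCACAT occurred only in the coding sequence of EIF4G3, at 2 places. These letters are not in these windows, which says nothing about any factor that binds RNA.

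Genes at the same loci were read because reads of overlapping genes can be confused. CTR9, which encodes a subunit of the PAF1 transcription elongation complex, lies on the opposite strand of EIF4G2 and shares 4576 bases of its span. It had 3157 to 3383 counts per library and was not called (log2 fold change 0.04, standard error 0.0245, edgeR FDR = 0.358). The mean count of EIF4G2 was 34410 in si-CN and 21519 in si-N6AMT1, and how many reads of one gene were assigned to the other was not tested. The small nucleolar RNAs in their introns, SNORD97 in EIF4G2 and SNORD66 in EIF4G1, had 0 and at most 1 count. The nearest tested genes beside EIF4G2 were RNF141 (log2 fold change -0.00376, standard error 0.0386) and the lncRNA ENSG00000246308 (-0.21, standard error 0.292), neither past the threshold.

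Beside EIF4G1, the proteasome subunit gene PSMD2 was downregulated from 314.4 ± 2.79 to 287.5 ± 3.07 CPM (SD, n = 3; log2 fold change -0.13, edgeR FDR = 0.000131). FAM131A on the other side was not called (0.12, standard error 0.0622). The neighbours of EIF4G3, HP1BP3 and ECE1, had log2 fold changes of 0.000318 and -0.02 and were not called. RPS15AP6, a processed pseudogene inside EIF4G3, was called higher at 4 to 15 counts per library (log2 fold change 1.35, edgeR FDR = 0.0201). It resembles a ribosomal protein mRNA, so its counts are uncertain. The call was lost without si-N6AMT1 replicate 2 or 3 and without si-CN replicate 1 or 2 (log2 fold changes 1.24, 1.31, 1.24 and 1.23).

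Binding partners of the scaffold did not move together with EIF4G2. Of 18 genes for eIF4F partners and their regulators, 17 were tested, of which 3 were downregulated, 4 were upregulated and 10 did not pass the threshold. Of the 17, 41.2% were called, beside 21.3% of all genes tested (11.5% lower and 9.78% higher), a share not matched for abundance. The median log2 fold change of the 17 was 0.06, compared with 0.00385 over all genes tested. EIF4E, the cap-binding protein, had 104.9 ± 2.51 CPM in si-CN and 109.4 ± 1.91 CPM in si-N6AMT1 libraries (log2 fold change 0.06, standard error 0.0287, edgeR FDR = 0.144). EIF4E3 had the lowest log2 fold change of this list (-0.46, standard error 0.175). Its level was low, at 3.26 ± 0.243 and 2.37 ± 0.584 CPM, and it did not pass (edgeR FDR = 0.0696). EIF4A1, the main helicase subunit, had 914 ± 16.8 and 946 ± 20.8 CPM (0.05, standard error 0.0216, edgeR FDR = 0.108), and passed only without si-CN replicate 1 (0.06). The helicase paralog EIF4A2 rose from 606 ± 8.59 to 675 ± 6.19 CPM (0.16, standard error 0.0205, edgeR FDR = 5.27e-06). MKNK2, one of the kinases that phosphorylate eIF4E while docked on the scaffold, rose from 328 ± 5.72 to 369 ± 4.52 CPM (0.17, standard error 0.0222, edgeR FDR = 4.15e-06).

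Regulators of eIF4F gave small changes in both directions. PAIP2, an inhibitor of the poly(A)-binding protein, rose by 0.14 on the log2 scale (edgeR FDR = 0.000272), and EIF4EBP2, a repressor of eIF4E, by 0.11 (edgeR FDR = 0.0035). EIF4B and EIF4H, both cofactors of the helicase, fell by 0.09 and 0.10 (edgeR FDR = 0.00276 and 0.00129). PABPC1, the poly(A)-binding protein itself, fell by 0.06 from 1305 ± 10.3 to 1252 ± 20.7 CPM (edgeR FDR = 0.0318). This call was lost without si-N6AMT1 replicate 1 or 3 and without si-CN replicate 2 or 3, where the log2 fold change ran from -0.06 to -0.05. EIF4EBP1, another repressor of eIF4E, had a log2 fold change of 0.00487, and PDCD4, an inhibitor of eIF4A, one of 0.08 (standard error 0.0419), and neither was called. Per length, EIF4A1 (1157 TPM in si-CN) and PABPC1 (1015 TPM) were near the level of EIF4G2, while EIF4E had 96.1 TPM.

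**Figure D3:**
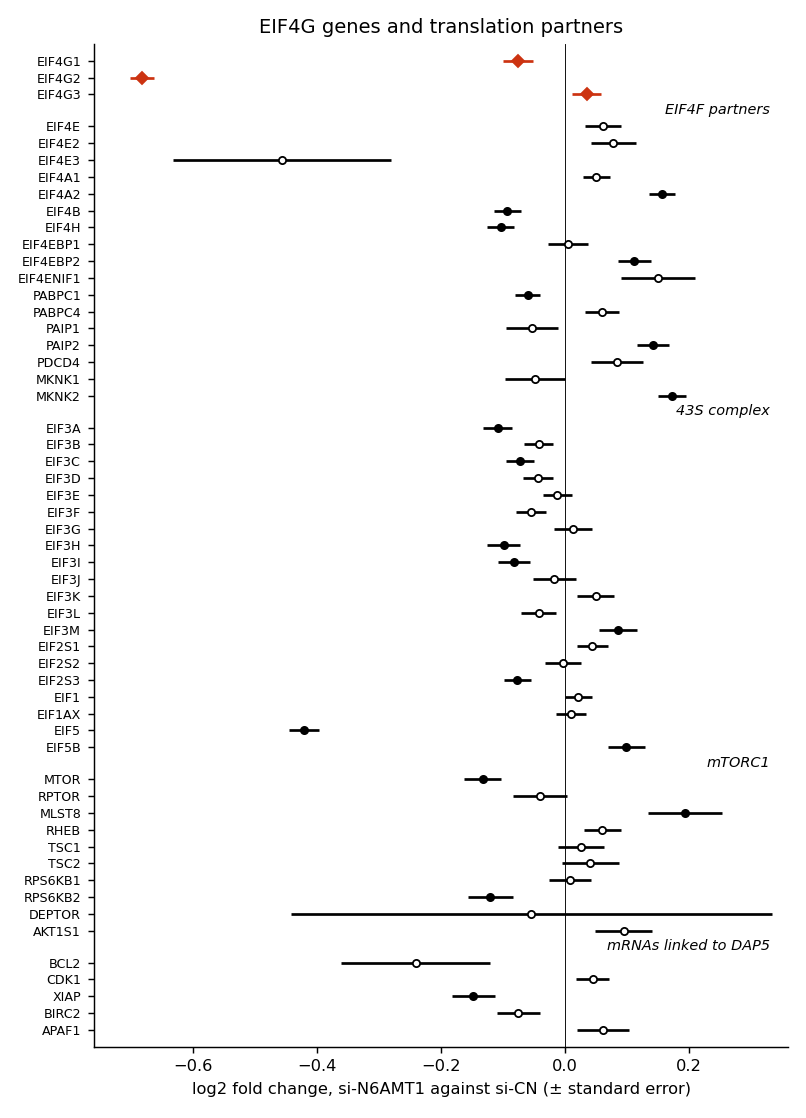
Log2 fold change of si-N6AMT1 against si-CN with its standard error for the EIF4G genes (diamonds) and for 52 tested genes of 4 lists (circles), filled where edgeR's FDR was under 0.05. EIF4G2 at -0.68 lies lowest, EIF5 at -0.42 is the lowest of the filled circles, and apart from EIF4E3, BCL2 and EIF5 the circles lie within 0.2 of 0.

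Components of the 43S complex, the small ribosomal subunit with its factors that the scaffold recruits, were mostly near 0, with the exception of EIF5. All 20 genes were tested, of which 6 were downregulated, 2 were upregulated and 12 did not pass. Their median log2 fold change was -0.03. Among all genes tested, 11.5% were lower and 9.78% higher. EIF5, the GTPase-activating factor for eIF2, had 310.7 to 322.6 CPM in si-CN and 229.6 to 241.2 CPM in si-N6AMT1 libraries, without overlap (log2 fold change -0.42, standard error 0.0244, edgeR FDR = 1.77e-11). EIF3A, the largest eIF3 subunit, fell by 0.11 (edgeR FDR = 0.00154), and EIF3H by 0.10 (edgeR FDR = 0.0086). The latter was lost without replicate 1 of either group (-0.08 each). EIF3C, whose reads can be split with its near-identical copy EIF3CL, EIF3I and EIF2S3 fell by 0.07, 0.08 and 0.08, and EIF3M and EIF5B rose by 0.09 and 0.10, all at an edgeR FDR between 0.0133 and 0.0483. Leaving out single libraries ended these 5 calls, and DESeq2 made none of them except EIF2S3. For EIF3C these were si-N6AMT1 replicates 2 and 3 and si-CN replicates 1 and 3, and for EIF3I si-N6AMT1 replicates 1 and 2 and si-CN replicate 3. For EIF2S3 it was si-CN replicate 1, and for both EIF3M and EIF5B replicates 2 and 3 of either group, with log2 fold changes of -0.07 to -0.06 in the lowered genes and 0.05 to 0.10 in the raised ones. EIF3E and EIF2S2, subunits that contact the scaffold or are described as contacting EIF4G2, had log2 fold changes of -0.01 and -0.00361 and were not called.

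mTORC1 controls the availability of eIF4E to the scaffold. Of 10 genes for its subunits, regulators and S6 kinases, all tested, MTOR (92.7 ± 1.87 to 84.5 ± 1.79 CPM, log2 fold change -0.13, edgeR FDR = 0.00264) and RPS6KB2 (-0.12, edgeR FDR = 0.0217) were downregulated. MLST8 was upregulated (0.19, edgeR FDR = 0.0237) and 7 did not pass, with a median of 0.02. The shares over all genes tested were again 11.5% lower and 9.78% higher. RPS6KB2 was lost without si-N6AMT1 replicate 1 or 2 and without si-CN replicate 1 or 2 (-0.12 to -0.11). MLST8 was lost without si-N6AMT1 replicate 3 and without si-CN replicate 1 or 2 (0.13, 0.19 and 0.18).

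Finally, 5 mRNAs whose translation has been linked to EIF4G2 were read at the level of RNA, since translation was not measured here. XIAP, an inhibitor of caspases, fell from 69.4 ± 1.03 to 62.6 ± 2.28 CPM (log2 fold change -0.15, standard error 0.0352, edgeR FDR = 0.00359). BCL2 (-0.24, standard error 0.120), BIRC2 (-0.08, standard error 0.0349), CDK1 (0.04, standard error 0.0265) and APAF1 (0.06, standard error 0.0422) did not pass the threshold, although BIRC2 did without si-CN replicate 3 (-0.12). Their median was -0.08. Among the 4 lists in the order given, 41.2% of the eIF4F genes, 8 of 20, 3 of 10 and 1 of 5 genes passed the threshold, beside 21.3% of all genes tested. The share over all genes was not matched for abundance. At high counts small changes passed, such as -0.06 for PABPC1 at 1305 CPM in si-CN. No test of a list as a whole was made, and no enrichment is read from these shares.

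To find the genes whose levels followed EIF4G2 most closely, log2 CPM was centred on the mean of the 6 libraries and compared by Euclidean distance. The 6 nearest genes were DDX21, an RNA helicase of ribosome synthesis (distance 0.0852), IL6ST, the gp130 cytokine receptor (0.0914), PHLDA2, an imprinted gene (0.109), CALU, a calcium-binding protein of the secretory pathway (0.118), AP1S3, a subunit of a clathrin adaptor (0.119), and ABITRAM (0.120). Their log2 fold changes lay between -0.67 and -0.60, a narrow range that follows from the choice by distance. They lie on 6 different chromosomes, and PHLDA2 shares chromosome 11 with EIF4G2. Pearson's r with EIF4G2 over the 6 libraries was 0.99 to 0.999, but these points share the division into 2 groups, and 114 genes had an r of at least 0.99. Ranked by r in place of distance, 1 of the 6 genes, DDX21, was still among the first 6.

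**Figure D4:**
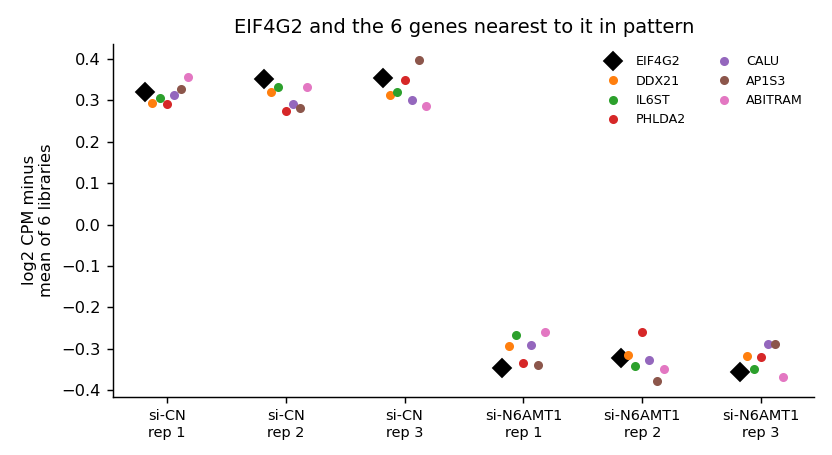
Log2 CPM minus the mean of the 6 libraries (vertical axis) for EIF4G2 (black diamonds) and the 6 genes nearest to it (coloured circles) in each library. The si-CN points lie between 0.27 and 0.40 and the si-N6AMT1 points between -0.38 and -0.26, and within a group the order of the genes differs between libraries.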

How the data were processed

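Per the labels and the paper's methods, the authors trimmed paired-end reads from stranded mRNA libraries with Trim Galore, estimated transcript abundance with kallisto v0.46.0 on hg19 and summed transcripts per gene. The deposited values are estimated counts (expected counts) in whole numbers, without normalization. kallisto's strand option is not given in the sources used here.

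Counts of 6 libraries were analysed here in R v4.3.3 (edgeR v4.0.16), using filterByExpr with a minimum count of 10, TMM scaling and the quasi-likelihood test without covariates. FDR is Benjamini-Hochberg adjusted over 17320 genes. Symbols of 62149 genes came from GENCODE release 44 on GRCh37, the same build. TPM was computed from reference transcript lengths, leaving out 289 genes without one (at most 0.137% of counts). Library pairs of a group differed by more than sampling noise (chi-square per degree of freedom 1.35 to 1.69). edgeR's common coefficient of variation beyond counting noise was 1.85%. Each library counted as 1 replicate, although these values cannot show whether the libraries came from separate transfections. Proteins were aligned with Biopython v1.88 (BLOSUM62). The procedure was tested on simulated data.

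1 planned marker of the cell line is not reported here, and PECAM1, a marker of another cell type, was not analysed here. Members and lists were chosen with earlier results of these data known. Named genes were the members, N6AMT1, fixed partners, called list genes, locus neighbours and the 6 genes nearest to EIF4G2 in pattern. Called list genes beyond the 3 with the smallest FDR, and EIF4E3, were named after their values were seen. Alternatives were RLE factors, DESeq2 v1.42.0, limma-voom (limma v3.58.1), no filter, a replicate block and each library left out. A further length for TPM was added after seeing the data.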

Additional observations from a re-analysis of the deposited data

How the results depend on the processing

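EIF4G2 kept its direction and size in all 11 alternatives of the fit, with a log2 fold change of -0.69 to -0.68, and so did its differences from EIF4G1 and EIF4G3. Each alternative reused these libraries, and EIF4G2 was chosen for its fall in them, so this is no independent support. Over all genes, DESeq2 called 1136 lower and 796 higher genes, compared with 1993 and 1694. With DESeq2, 43S genes had 4 lower and 0 higher calls (EIF3C, EIF3I, EIF3M and EIF5B were lost, at adjusted p of 0.0728 to 0.134), and mTORC1 genes 1 lower and 0 higher (RPS6KB2 and MLST8 were lost); limma-voom gave 1 higher 43S gene. With the replicate number as a block (replicate block), 1804 lower and 1522 higher genes were called, EIF4G1 (-0.08), PABPC1, EIF3C and EIF3M were no longer called, and 1 higher 43S gene was left. Replicate numbers showed no pairing of the libraries (correlations of same-numbered deviations -0.0422 to 0.01). Counting noise in genes with few counts can hide a pairing, so none is excluded. With single libraries left out, lower and higher calls ran from 3 to 6 and 0 to 2 for 43S genes, 1 to 2 and 0 to 2 for mTORC1 genes, and 1 to 2 lower for mRNAs linked to EIF4G2. The ratio of EIF4G2 to EIF4G1 in si-CN was 17.0 with median transcript length, 4.18 in CPM and 5.75 with complete transcripts, and to EIF4G3 61.9, 9.57 and 14.8. Signs turned only in named genes near 0: HP1BP3 was -0.00091 by DESeq2, -5.1e-05 by limma-voom and -0.0026 without a filter, and without single libraries HP1BP3 ran from -0.0167 to 0.0207, RNF141 from -0.0282 to 0.0302, EIF2S2 from -0.0390 to 0.0391, EIF3E from -0.0246 to 0.00319 and EIF4EBP1 from -0.0181 to 0.0219. At these depths genes near 1 CPM carry wide errors.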
